A study of Rattus norvegicus with 2 samples.

Results

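Potassium channel genes were defined as all genes whose symbol starts with Kcn and that had at least 50 UMIs over both libraries. UMIs are unique molecular identifiers, short random tags that mark each captured RNA molecule once. The gene list held 92 such symbols among 32883 genes, and 66 of them passed, while 26 had fewer UMIs and 4 of these had 0 (*Kcnk6*, *Kcnk18*, *Kcna10* and *Kcng3*). The members just inside the limit were *Kcnj13* with 57 UMIs and *Kcnk4* with 59 UMIs, and those just outside were *Kcnk5* with 42 UMIs and *Kcnab3* with 30 UMIs. Members held between 57 and 9168 UMIs with a median of 371. The 5 highest, *Kcna6*, *Kcnj16*, *Kcnj8*, *Kcna1* and *Kcnip4*, held 40.7% of the 65926 member UMIs.

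Hypothalamic tissue with the anteroventral periventricular nucleus (AVPV) and arcuate nucleus (ARC) was taken at postnatal day (PND) 29 from female Sprague Dawley rats and dissociated for droplet-based 3′ sequencing of single cells. In SC300, a capsule of silicone placed at PND 0.5 delivered estradiol benzoate (EB, 300 µg in sesame oil). Control females are termed intact in the labels, and the methods give them capsules holding only oil. The deposited design text instead describes the SC300 capsules as holding vehicle, so the sources differ on the treatment, and the groups here follow the sample titles, which name EB300 and intact. Each library came from 3 pooled animals, and with 1 library per group the spread between animals was not measured. No test between groups was made, and all intervals are 95% intervals that cover counting error only.

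Potassium channels let potassium ions leave the cell and thereby set the resting potential and end each action potential. Voltage-gated channels open on depolarization, inward rectifier (Kir) channels conduct near the resting potential, K2P channels carry the leak current, and calcium-activated channels follow calcium inside the cell. In brain tissue, neurons use many of these channels to shape firing, astrocytes use Kir channels to take up potassium, and pericytes carry the ATP-sensitive Kir channel. The 66 members comprised 29 of 38 voltage-gated symbols, 12 of 15 Kir and 9 of 14 K2P. They also held 7 of 8 symbols grouped as calcium-activated and 9 of 17 accessory subunits. The calcium-activated group took in the *Kcnt* genes and *Kcnu1*, although *Kcnt1* is a sodium-activated channel.

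After barcodes with fewer than 200 detected genes were left out, 4296 Control and 4379 SC300 barcodes remained, with 51382276 and 56390355 UMIs. Cell types were assigned from marker genes without any Kcn gene, which covered 91.8% and 91.0% of the barcodes, and each name below stands for cells that are like that type by these markers. The 11 types with at least 20 barcodes in each library ranged from 62 barcodes (haemoglobin-rich, SC300) to 1388 barcodes (astrocytes, SC300). Scrublet marked 70 Control and 73 SC300 barcodes as doublets, which were kept. Of 9 barcode sequences that occurred in both libraries, 7 passed the gene limit and 2 had the same type. Members made up 614 CPM of all UMIs in Control and 610 CPM in SC300. Levels are given as CPM, the UMIs of a gene per 1000000 UMIs of a type, and each gene is compared across types only, since 3′ counts are not divided by length and depend on the annotated gene end. Leading types, next types and counts of types refer to these 11 types, and macrophages and stromal cells, with too few barcodes, are given at the end. Free RNA in droplets can add a low level of abundant transcripts to all types.

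Promoters of a few members are shown to place them in the genome. Of the 66 members, 46 had an entry in the RefSeq promoter table (build GRCr8, 250 bases before to 50 bases after the annotated start), and their median GC content was 65.5%, against 51.7% for all 33469 promoters in the table. In the first 3 sequences below, CpG dinucleotides are in capitals. The promoter of *Kcnj16*, the Kir channel gene that led in astrocytes, held 6 of them at 34% GC (chr10:96517074-96517373, plus strand). The promoter of *Kcnk13*, a K2P channel gene that led in microglia, held 33 at 69% GC (chr6:124971559-124971858, plus strand). The promoter of *Kcnj8*, the pore subunit of the ATP-sensitive channel that led in mural cells, held 23 at 67% GC (chr4:177246499-177246798, minus strand). The fourth sequence is from *Kcnc2*, the voltage-gated member with the highest ratio in astrocytes between SC300 and Control (chr7:49587364-49587663, plus strand), and its capitals mark the letters GGTCA, the half-site of the estrogen response element, which lie at positions -211 and -162 from the start.
*Kcnj16*: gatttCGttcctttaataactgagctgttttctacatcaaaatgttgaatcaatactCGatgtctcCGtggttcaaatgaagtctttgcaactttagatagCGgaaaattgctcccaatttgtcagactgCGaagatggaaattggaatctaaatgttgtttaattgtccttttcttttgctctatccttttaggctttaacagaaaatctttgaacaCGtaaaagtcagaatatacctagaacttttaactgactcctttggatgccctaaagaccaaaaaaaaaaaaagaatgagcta
*Kcnk13*: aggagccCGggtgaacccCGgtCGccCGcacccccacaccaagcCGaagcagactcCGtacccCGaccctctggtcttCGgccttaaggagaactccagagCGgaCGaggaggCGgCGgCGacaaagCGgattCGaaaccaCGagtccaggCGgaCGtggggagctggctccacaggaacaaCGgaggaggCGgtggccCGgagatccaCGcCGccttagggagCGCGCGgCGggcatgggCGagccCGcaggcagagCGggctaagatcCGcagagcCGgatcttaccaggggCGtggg
*Kcnj8*: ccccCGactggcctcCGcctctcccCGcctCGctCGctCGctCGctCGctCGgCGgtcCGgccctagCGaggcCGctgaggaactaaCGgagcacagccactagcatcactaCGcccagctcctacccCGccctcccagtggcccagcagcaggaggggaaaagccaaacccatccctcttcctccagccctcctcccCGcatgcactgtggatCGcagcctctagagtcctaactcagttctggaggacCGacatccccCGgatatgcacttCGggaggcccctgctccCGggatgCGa
*Kcnc2*: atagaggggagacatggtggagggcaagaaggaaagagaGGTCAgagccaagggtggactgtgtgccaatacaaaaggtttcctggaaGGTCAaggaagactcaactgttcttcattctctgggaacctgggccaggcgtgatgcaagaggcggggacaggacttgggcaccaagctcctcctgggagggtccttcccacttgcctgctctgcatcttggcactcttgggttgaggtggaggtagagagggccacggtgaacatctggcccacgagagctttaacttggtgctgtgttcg

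GGTCA or its reverse complement TGACC occurred in at least 1 promoter of 12 of 46 members (26.1%) and in 40.5% of all promoters in the table. Members were counted by gene, with 51 promoters for the 46, while the whole table was counted by single promoter. The full element GGTCANNNTGACC, read on both strands and overlapping the half-sites, occurred for 0 of 46 members and in 9 of 33469 promoters. The TATA box TATAAA occurred on either strand in 1 member, *Kcnj13* (2.17%), and in 14.2% of all promoters. These are matches of letters in a short window and say nothing about binding. In the RefSeq gene table, 12 of the 66 members had another Kcn gene as the neighbouring protein-coding gene. *Kcna1* lies beside *Kcna6*, *Kcnj16* beside *Kcnj2*, and *Kcnj8* beside *Abcc9*, which encodes its regulatory subunit.

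Cell types differed in which channel genes they held. Neurons reached 10 CPM for 23 members and oligodendrocyte precursors for 21, astrocytes for 12, ependymal cells for 9, tanycytes for 7, newly formed oligodendrocytes for 6, microglia for 4, and mature oligodendrocytes and mural cells for 3 each. The number of all genes that reached 10 CPM in each type was not counted, so these counts may follow a general difference between types. Voltage-gated channels held 91.5% of member UMIs in mature oligodendrocytes and 56.4% in neurons. Kir channels held 89% in mural cells and 41.1% in astrocytes, and K2P channels held 43.1% in microglia and 36.9% in ependymal cells. Most of each Kir and K2P share was 1 member. In mural cells *Kcnj8* alone held 87.2%, and in astrocytes *Kcnj16* held 39.4%. In microglia *Kcnk13* held 40.7%, and in ependymal cells *Kcnk16* held 25.6%. Of voltage-gated channels, *Kcna1* held 42.1% in mature oligodendrocytes, where *Kcna6* was close (172.8 CPM against 173.2 CPM of *Kcna1* over both libraries). In neurons *Kcna6* held 17.1%. These shares sum genes whose 3′ counts depend on the annotated gene end.

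The order of types was much alike in both libraries. For 50 of 66 members, the type with the highest CPM was the same in Control and SC300, and for 27 of them its interval was apart from that of each other type in both libraries. With both libraries summed, neurons led for 21 members, oligodendrocyte precursors for 15, astrocytes for 10, ependymal cells for 6, microglia for 4, mature oligodendrocytes for 3, mural cells, newly formed oligodendrocytes and tanycytes for 2 each, and endothelial cells for 1. The leading type exceeded the second by 2-fold or more for 32 members and by 5-fold or more for 14. Over both libraries summed, 27 members stayed under 10 CPM in all 11 types, 18 reached it in 1 of them, and 5 reached it in at least 5 types, among them *Kcna6*, *Kcnd3* and *Kcna2*. These counts were not made over all genes, so they do not show whether channel genes differ from other genes.

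**Figure D1:**
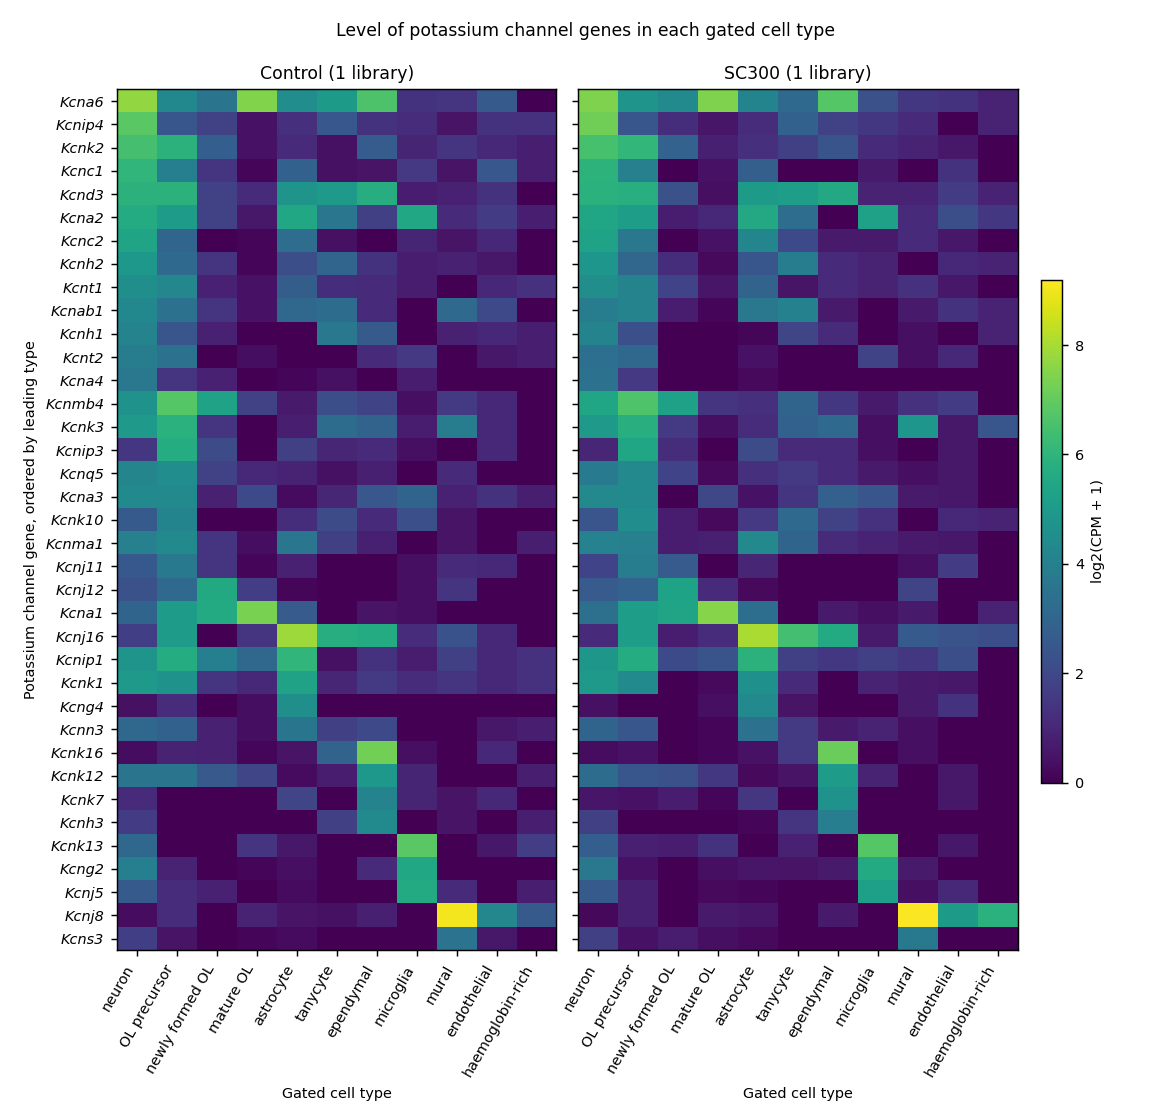
Level of 37 of the 39 members that reached 10 CPM in at least 1 of the 11 types with both libraries summed, as log2(CPM + 1) in Control (left) and SC300 (right), 1 library each, with types in columns and genes ordered by leading type. *Kcnj8* in mural cells is the brightest cell in both libraries, and 50 of all 66 members have the same leading type in both.

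Astrocytes were marked by *Kcnj16*, whose product joins *Kcnj10* subunits to form a pH-sensitive Kir channel. Its level was 229 CPM (220 to 239) in Control and 260 CPM (251 to 270) in SC300, and 72.3% and 78.0% of astrocytes had a UMI. The next types were tanycytes with 52.1 and 86.2 CPM, ependymal cells with 49.9 and 47.8 CPM, and oligodendrocyte precursors with 32.4 and 34.4 CPM, while neurons stood at 2.26 and 1.2 CPM. A UMI was found in 3.67% and 3.10% of neurons, although their median depth was 24338 and 23428 UMIs against 6299 and 6534 in astrocytes. With both libraries summed, the astrocyte level was 3.63-fold that of tanycytes. *Kcnj10*, the main Kir channel of astrocytes in the literature, reached 4.51 and 3.64 CPM, with 45 and 40 UMIs in astrocytes, and its intervals overlapped those of oligodendrocyte precursors (4.10 and 4.53 CPM).

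*Kcng4*, a silent Kv subunit, had 23.0 and 20.3 CPM in astrocytes and no more than 1.54 CPM in each of the other 10 types in either library. *Kcnip1*, a calcium-binding subunit of Kv4 channels, had 64.9 and 58.7 CPM there and 50.5 and 50.6 CPM in oligodendrocyte precursors, and these intervals overlapped. *Kcnn3*, a small-conductance calcium-activated channel, had 10.9 and 9.83 CPM in astrocytes. *Kcne2*, a small accessory subunit, had 4.51 and 5.01 CPM, and *Kcnd1*, an A-type Kv4 channel, had 7.68 CPM there over both libraries, beside 16.2 CPM in stromal cells from 8 UMIs. *Kcna2*, a Kv1 channel of axons, was shared by astrocytes (43.7 and 45.6 CPM), neurons (49.1 and 42.4 CPM) and microglia (44.0 and 37.1 CPM), and the intervals of these 3 types overlapped in each library.

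Microglia held few channel genes at a high level. *Kcnk13*, a K2P channel known from microglia, had 115 CPM (103 to 127) in Control and 110 CPM (98.9 to 122) in SC300, and neurons had 7.61 and 5.68 CPM. The few macrophages held it at 24.0 and 67.5 CPM, from 3 and 25 UMIs. A *Kcnk13* UMI was found in 51.0% and 57.3% of microglia. *Kcng2*, another silent Kv subunit, had 43.7 and 48.1 CPM in microglia and 14.8 and 11.8 CPM in neurons. *Kcnj5*, a Kir channel opened by G proteins, had 48.0 and 35.9 CPM in microglia and 5.02 and 5.04 CPM in neurons. *Kcna3*, the Kv1 channel often studied in activated microglia, had 6.77 and 4.45 CPM, below the 20 and 19.0 CPM of neurons. When microglia were split at 5000 CPM of *Ccl3*, *Ccl4* and *Il1b* together, *Kcnk13* had 116 and 100 CPM in the high range and 113 and 126 CPM in the low range, and 68 of 859 microglia lay within 20% of the limit.

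Of the cells of the ventricular wall, ependymal cells led for 6 members, 4 of them in both libraries. Tanycytes led for 2 members, 0 of them in both libraries. *Kcnk16*, a K2P channel opened by alkaline pH, had 152 CPM (137 to 167) and 137 CPM (120 to 156) in ependymal cells and 6.60 and 1.98 CPM in tanycytes, the second type. Among genes above a minimum level in ependymal cells, it had rank 9 by the ratio of these cells to all other kept barcodes. *Kcnk12*, a silent K2P subunit, had 28.6 and 32.3 CPM there, *Kcnk7*, another silent K2P subunit, 16.2 and 25.1 CPM, and *Kcnh3*, an EAG-like voltage-gated channel, 19.7 and 14.4 CPM. *Kcnc4*, an A-type Kv3 channel, led there with 6.81 CPM over both libraries, from 29 UMIs, but not in each library. In Control ependymal cells had 8.89 CPM and tanycytes 7.92 CPM, while in SC300 astrocytes led with 4.19 CPM against 3.59 CPM. The A-type channel gene *Kcnd3* was found in ependymal cells (52.2 and 46.1 CPM), tanycytes (30.7 and 34.8 CPM), neurons (59.9 and 57.5 CPM) and oligodendrocyte precursors (58.7 and 53.3 CPM). Tanycytes themselves carried ependymal markers at 2114 and 2106 CPM, so the boundary between both types was not sharp.

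Mural cells were marked by *Kcnj8*, whose product is the pore of the vascular ATP-sensitive channel. It had 521 CPM (493 to 549) and 565 CPM (540 to 591), the highest level of any member in any type. Among genes above a minimum level in mural cells, it had rank 2 by the ratio of these cells to all other kept barcodes. *Abcc9*, the sulfonylurea receptor that pairs with it, had 951 and 991 CPM in the same cells and 97.4 and 116 CPM in endothelial cells. Endothelial cells held 18 and 31.3 CPM of *Kcnj8* and haemoglobin-rich barcodes 5.08 and 58.0 CPM, from 7 and 64 UMIs, with mural markers at 82.0 and 232 CPM. Of 385 mural barcodes, 379 had at least 2 endothelial UMIs, and endothelial markers stood at 8486 and 8489 CPM in them, above the mural markers at 2966 and 3003 CPM. *Kcns3*, a silent Kv subunit, had 10.3 and 12.0 CPM in mural cells. *Kcne3*, a small accessory subunit, had 8.76 and 10.3 CPM in endothelial cells, where 76.5% and 75.0% of its UMIs came from 3 barcodes, and 2.37 and 11.4 CPM in mural cells, so that the leading type was not the same in both libraries.

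The other ATP-sensitive channel gene, *Kcnj11*, led in oligodendrocyte precursors with 12.3 and 13.6 CPM, where *Abcc8*, its usual receptor partner, had 10.3 and 11.0 CPM. Neurons had 4.85 and 2.64 CPM of *Kcnj11* and 5.02 and 4.16 CPM of *Abcc8*.

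**Figure D2:**
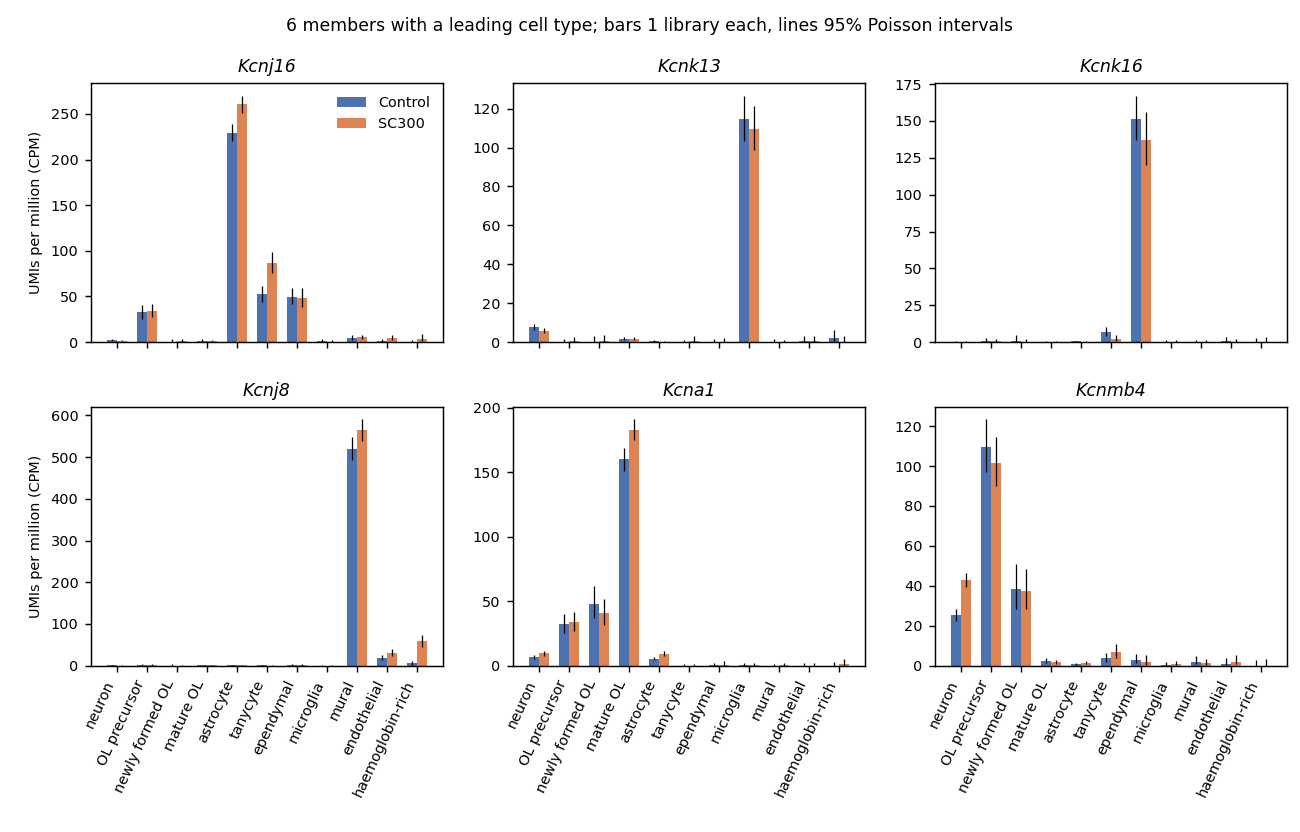
Level in CPM of 6 members in each gated type, with bars for Control (blue) and SC300 (orange), 1 library each, and lines for 95% Poisson intervals. Each gene has the same leading type in both libraries, and *Kcnmb4* differs between libraries in neurons (25.3 and 42.7 CPM).

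The oligodendrocyte lineage changed its channel genes between stages. Of 17 members with at least 100 UMIs in precursors and mature cells together, 14 were at least 1.5-fold lower in mature cells in both libraries, with intervals apart from 0, and 2 were higher by the same rule. Of all 8834 genes with that number of UMIs, 51% were lower and 11.2% higher, so that a fall was common among all genes. The 2 higher members were *Kcna1* and *Kcna6*, Kv1 channels of the axon and myelin region. *Kcna1* had 32.4 and 33.6 CPM in precursors, 48.1 and 40.7 CPM in newly formed cells, and 160 and 183 CPM in mature cells. *Kcna6* had 18.5 and 26.1 CPM, then 10.6 and 20 CPM, and then 176 and 170 CPM. Neurons had 211 and 172 CPM of *Kcna6*, and the intervals of mature cells and neurons overlapped in SC300 but not in Control. Neuron gate markers stood at 322 and 351 CPM in mature cells, 43.1 and 44.5 CPM in microglia and 3897 and 3772 CPM in neurons, while GABAergic markers were at 3.68 and 3.12 CPM in mature cells and 1049 and 854 CPM in neurons. Their part in the levels of *Kcna1* and *Kcna6* was not tested. *Kcnip4*, which had 114 and 145 CPM in neurons, was at 0.380 and 0.473 CPM in mature cells.

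*Kcnmb4*, a beta subunit that slows the large-conductance calcium-activated channel, went from 110 and 102 CPM in precursors to 38.4 and 37.5 CPM in newly formed cells and 2.41 and 1.61 CPM in mature cells. *Kcnip3*, a calcium-binding protein of Kv4 channels, went from 51.3 and 41.2 CPM to 3.26 and 1.29 CPM, and mature cells held 0 UMIs in both libraries, so its fall was read against a floor of 3 UMIs. *Kcnk2*, a stretch-sensitive K2P channel, went from 59.1 and 66.5 CPM to 5.71 and 6.46 CPM and then to 0.380 and 0.757 CPM. *Kcnk3*, an acid-sensitive K2P channel, had 57.1 and 53.3 CPM in precursors, 30.9 and 30.3 CPM in neurons and at most 0.284 CPM in mature cells. *Kcnj12*, a strong Kir channel, stood out in newly formed cells, with 46.5 and 39.4 CPM against 7.80 and 6.42 CPM in precursors and 2.15 and 1.14 CPM in mature cells. *Kcnn2*, a small-conductance calcium-activated channel, also led there with 8.98 and 7.11 CPM, from 11 UMIs in each library. Mature cells with fewer than 5 *Klk6* UMIs, an enzyme of a mature subgroup, had more *Kcnip1* (16.7 and 10.3 CPM against 4.64 and 2.64 CPM) than the other mature cells, while *Kcna1* (167 and 178 CPM against 158 and 184 CPM) was close.

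**Figure D3:**
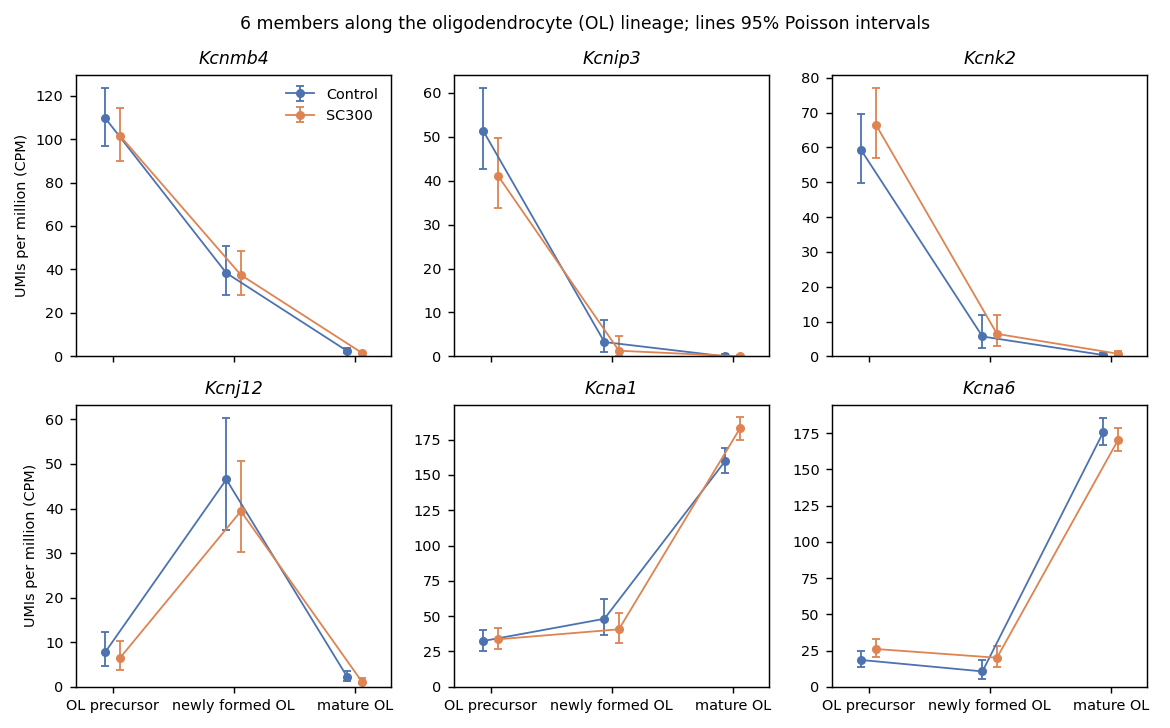
Level in CPM of 6 members in oligodendrocyte precursors, newly formed and mature oligodendrocytes, with points for Control (blue) and SC300 (orange) and lines for 95% Poisson intervals. *Kcnmb4*, *Kcnip3* and *Kcnk2* decline along the stages, *Kcnj12* peaks in the middle stage, and *Kcna1* and *Kcna6* are highest in mature cells.

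Neurons reached 10 CPM for 23 members, close to the 21 of oligodendrocyte precursors. *Kcnip4*, a calcium-binding subunit of Kv4 channels, had 114 and 145 CPM and was 24.1-fold above the next type with both libraries summed. *Kcnh6*, an ERG-type channel, was 10.8-fold above the next type at 6.61 and 6.80 CPM, and *Kcna4*, an A-type Kv1 channel, 6.17-fold at 11.7 and 10.2 CPM. *Kcnf1*, a silent Kv subunit, had 65 and 46 UMIs in neurons and at most 1 UMI in any other type and library. *Kcnk2* had 87.6 and 91.6 CPM, *Kcnc1*, a fast-spiking Kv3 channel, 65.1 and 61.1 CPM, and *Kcnh2*, the ERG channel, 28.6 and 27.8 CPM. *Kcnq3*, a channel of the M-current, had 2.26 and 1.2 CPM in neurons and 3.80 and 2.46 CPM in mature oligodendrocytes. *Kcnq5*, of the same family, had 17.1 and 13.1 CPM in neurons and 21.8 and 18.9 CPM in precursors. *Kcnj6* and *Kcnj9*, Kir channels opened by G proteins, had 5.02 and 4.88 CPM and 5.86 and 5.76 CPM in neurons. *Kcnj9* was higher in mature oligodendrocytes, with 7.86 and 9.47 CPM, and had 10.3 and 4.91 CPM in precursors.

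GABAergic (265 and 250) and glutamatergic (107 and 109) neurons shared most of these levels. Of 34 members with at least 100 UMIs in both classes together, 4 were at least 1.5-fold higher in glutamatergic neurons in both libraries with intervals apart from 0, beside 1.85% of all 9094 genes, and 1 was lower, beside 2.31%. *Kcnmb4* had 15.9 and 23.7 CPM in GABAergic neurons and 47.7 and 78.4 CPM in glutamatergic neurons. *Kcna1* had 2.80 and 4.04 CPM against 14.2 and 19.0 CPM, *Kcna2* had 36.1 and 28.9 CPM against 67.6 and 68.1 CPM, and *Kcnip1* had 21.3 and 17.2 CPM against 37.4 and 48.3 CPM. *Kcnab1*, a beta subunit of Kv1 channels, was lower in glutamatergic neurons, with 12.4 and 11.3 CPM against 22.5 and 17.2 CPM.

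**Figure D4:**
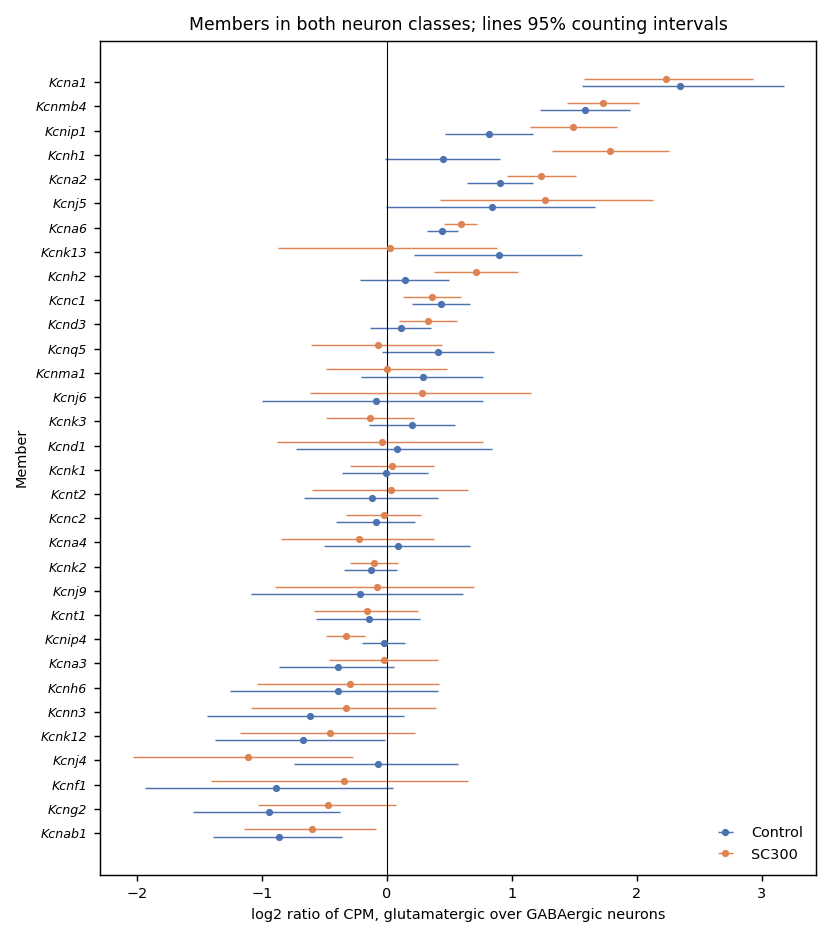
log2 ratio of CPM in glutamatergic over GABAergic neurons for 32 of the 34 members with at least 100 UMIs in both classes together, in Control (blue) and SC300 (orange), with 95% counting intervals. *Kcna1* and *Kcnmb4* lie above 1.5 in both libraries, and most members lie near 0.

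Between SC300 and Control, levels were close for most members. In 93 pairs of a member and a type with at least 100 UMIs (42 members), the median size of the ratio was 1.13-fold, and 63 pairs were under 1.2-fold. 7 pairs were at least 1.5-fold higher in SC300 and 3 at least 1.5-fold lower. The shares over all genes are given by type below. Neither endothelial cells nor haemoglobin-rich barcodes had a member with 100 UMIs.

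**Figure D5:**
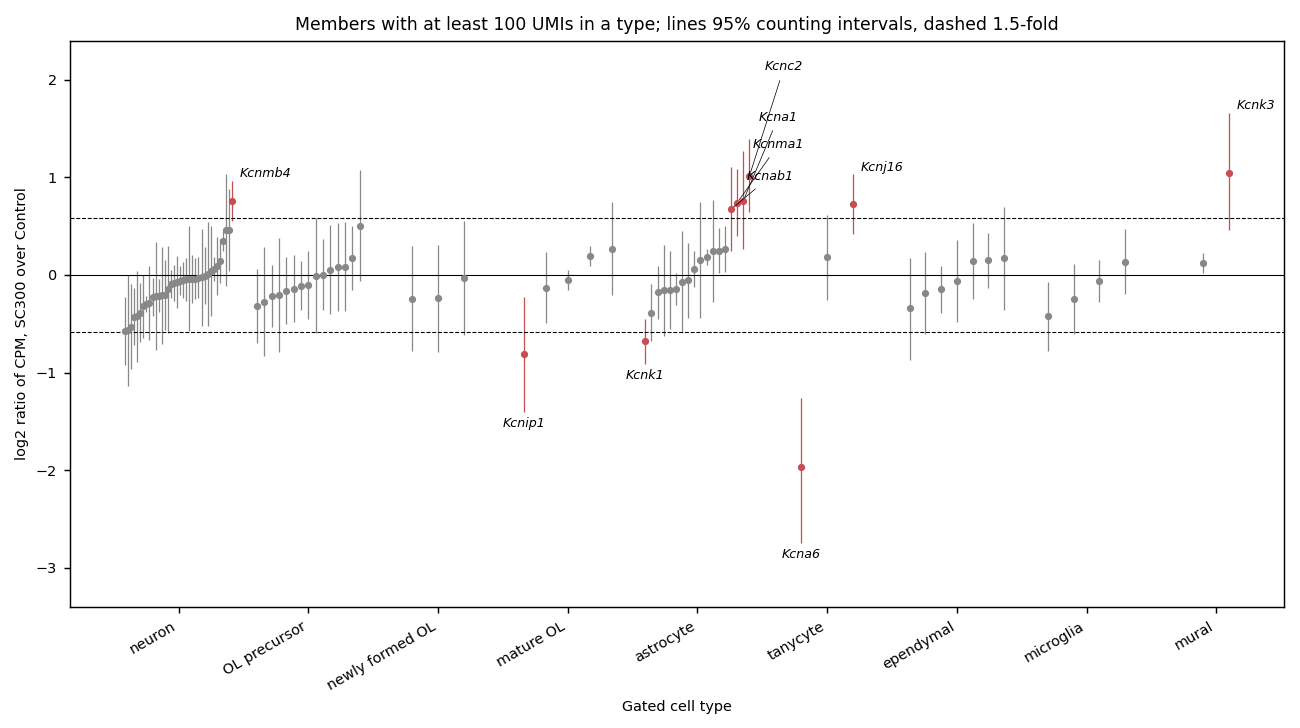
log2 ratio of CPM in SC300 over Control for the 93 pairs of a member and a gated type with at least 100 UMIs, ordered within each type, with 95% counting intervals and dashed lines at 1.5-fold. The 10 pairs past the lines are red and named, and 4 of the 7 higher ones are in astrocytes.

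In astrocytes, 4 of 18 members were at least 1.5-fold higher in SC300, beside 1.71% of all genes with that number of UMIs, and 1 was lower, beside 1.48%. *Kcnc2*, a Kv3 channel of fast-spiking neurons, had 88 UMIs or 8.82 CPM (7.08 to 10.9) in Control. In SC300 it had 196 UMIs or 17.8 CPM (15.4 to 20.5), a log2 ratio of 1.02 (0.65 to 1.40). Its leading type was neurons, with 40.2 CPM in Control and 38.7 CPM in SC300. *Kcnma1*, the large-conductance calcium-activated channel, had 11.3 and 18.9 CPM (log2 ratio 0.74). *Kcna1* had 5.31 and 9.01 CPM (0.76), and *Kcnab1* had 7.42 and 11.8 CPM (0.67). *Kcnk1*, a weakly rectifying K2P channel, had 379 UMIs or 38.0 CPM (34.3 to 42.0) in Control and 261 UMIs or 23.8 CPM (21.0 to 26.8) in SC300, a log2 ratio of -0.68 (-0.91 to -0.45). The median log2 ratio was 0.11 over the 18 members and -0.01 over all 9012 genes.

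Astrocytes fell into several clusters with unequal shares. The largest held 39.2% of Control and 53.8% of SC300 astrocytes, and the second held 38.1% and 29.5%. Within the largest, *Kcnc2* had 7.44 and 22.2 CPM (log2 ratio 1.57) and *Kcnk1* 68.7 and 31.7 CPM (-1.11). Within the second, *Kcnc2* had 9.16 and 15.2 CPM (0.73) and *Kcnk1* 28.2 and 21.0 CPM (-0.42). The ratios of *Kcnma1* (0.57 and 0.84), *Kcna1* (0.45 and 0.97) and *Kcnab1* (0.70 and 0.53) kept their direction within both, though the intervals of *Kcna1* in the largest and of *Kcnab1* in both included 0. Neuron markers in astrocytes stood at 74.1 CPM in Control and 82.8 CPM in SC300, with 1 of 6 at 0 in each. Precursor gate markers stood at 37.5 and 50.1 CPM, mature oligodendrocyte gate markers at 49.8 and 55.6 CPM, and the 5 mature oligodendrocyte markers outside the gate at 903 and 1141 CPM, none of them at 0. Their part in the 4 higher ratios was not tested.

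In neurons, 1 of 36 members was at least 1.5-fold higher, beside 2.2% of all genes, and 0 were lower, beside 1.97%. *Kcnmb4* had 302 UMIs or 25.3 CPM (22.5 to 28.3) in Control and 534 UMIs or 42.7 CPM (39.2 to 46.5) in SC300, a log2 ratio of 0.76 (0.55 to 0.97). The 3 highest barcodes held 24.5% and 19.9% of these UMIs, and 24.4% and 31.9% of neurons had a UMI. After thinning to 2000 UMIs a cell, these shares were 3.77% and 3.79%, from 17 neurons in each library. The ratio was 0.57 in GABAergic and 0.72 in glutamatergic neurons, and 0.26 when every cell was weighted alike. The 4 precursor gate markers were at 18.2 and 22.3 CPM in neurons and the 5 mature oligodendrocyte markers outside the gate at 222 and 810 CPM, and their part in the ratio was not tested. *Kcnip4* (0.35) and *Kcna6* (-0.29) had intervals apart from 0 but stayed under 1.5-fold.

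Tanycytes had 3 members with at least 100 UMIs, of which 1 was higher, beside 3.21% of all genes, and 1 was lower, beside 6.61%. *Kcna6* had 94 UMIs or 31.0 CPM (25.1 to 38.0) in Control and 20 UMIs or 7.91 CPM (4.83 to 12.2) in SC300, a log2 ratio of -1.97 (-2.75 to -1.26), and 23.8% and 11.0% of tanycytes had a UMI, or 5.08% and 0.658% after thinning. It was the largest ratio among the 93 pairs. In ependymal cells, where *Kcna6* had 97.0 and 108 CPM, the log2 ratio was 0.15 (-0.13 to 0.43). *Kcnj16* had 158 UMIs or 52.1 CPM (44.3 to 60.9) in Control and 218 UMIs or 86.2 CPM (75.1 to 98.4) in SC300, a log2 ratio of 0.73 (0.42 to 1.03). Astrocyte gate markers in tanycytes were 511 and 512 CPM, and the 5 astrocyte markers outside the gate 664 and 547 CPM. Ependymal gate markers were 2114 and 2106 CPM, and the 6 ependymal markers outside the gate 1373 and 1050 CPM. Tanycyte gate markers were 3166 and 4101 CPM, and the 5 tanycyte markers outside the gate 4635 and 3261 CPM. The 6 neuron gate markers were 196 and 150 CPM, with 1 at 0 in each library, and the 7 neuron markers outside the gate 679 and 923 CPM. The 5 mural markers outside the gate were 627 and 1718 CPM. Their part in both ratios was not tested.

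In mural cells, 1 of 2 members was higher, beside 2.47% of all genes, and 0 were lower, beside 2.28%. *Kcnk3* had 34 UMIs or 13.4 CPM (9.30 to 18.8) in Control and 92 UMIs or 27.7 CPM (22.3 to 33.9) in SC300, a log2 ratio of 1.04 (0.46 to 1.66), and 11.1% and 28.7% of mural cells had a UMI, or 3.28% and 6.25% after thinning. The 4 precursor gate markers, whose cells also hold *Kcnk3*, were at 175 and 219 CPM in mural cells, and the 6 precursor markers outside the gate at 19.0 and 51.1 CPM, with 2 and 0 of them at 0. Astrocyte gate markers were at 129 and 338 CPM, the mural markers outside the gate at 3283 and 2727 CPM, and the stromal and microglia markers outside the gate at 317 and 168 CPM and at 97.6 and 35.8 CPM. Their part in the ratio was not tested. The log2 ratio of *Kcnj8* was 0.12 (0.02 to 0.22).

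In mature oligodendrocytes, 0 of 5 members were higher, beside 1.42% of all genes, and 1 was lower, beside 1.79%. It was *Kcnip1*, with 59 UMIs or 7.48 CPM (5.69 to 9.65) in Control and 45 UMIs or 4.26 CPM (3.11 to 5.70) in SC300, a log2 ratio of -0.81 (-1.40 to -0.23). Cells with fewer than 5 *Klk6* UMIs, which held more *Kcnip1*, were 105 of 374 in Control and 110 of 467 in SC300. *Kcnip1* was lower in SC300 within these cells (16.7 and 10.3 CPM) and within the other mature cells (4.64 and 2.64 CPM). The part of the unequal shares in the ratio was not tested.

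No member with at least 100 UMIs in the type passed 1.5-fold in the other types. In oligodendrocyte precursors, 0 of 15 members were higher, beside 0.784% of all genes, and 0 lower, beside 1.1%. In ependymal cells, 0 of 7 were higher, beside 1.88%, and 0 lower, beside 3.34%. In microglia, 0 of 4 were higher, beside 1.47%, and 0 lower, beside 2.78%. In newly formed oligodendrocytes, 0 of 3 were higher, beside 3.63%, and 0 lower, beside 4.39%. With 3 to 15 members in a type, counts of 0 are near these percentages.

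Partner genes of the channels were read from a list of 29, of which 28 were found. *Hcn2*, a channel opened by hyperpolarization, led in mature oligodendrocytes with 22.6 and 34.2 CPM. Of 11 partner genes with at least 100 UMIs in that type, it alone was at least 1.5-fold higher in SC300. The share over all genes was 1.42%, and 0 partner genes were lower, beside 1.79%. Partner genes also passed 1.5-fold in astrocytes, endothelial cells, ependymal cells, haemoglobin-rich barcodes, neurons and newly formed oligodendrocytes. *Dpp6*, a Kv4 partner, had 216 and 199 CPM in precursors, 201 and 198 CPM in neurons and 217 and 169 CPM in astrocytes.

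Of the small groups, stromal cells (12 and 31 barcodes) held *Kcnk2* at 88.9 and 118 CPM from 13 and 41 UMIs, and *Kcnj13*, a Kir channel of transporting epithelia, at 13.7 and 25.9 CPM from 2 and 9 UMIs. These levels were above those in each of the 11 larger types, as was *Kcnd1* (16.2 CPM over both libraries). The stromal intervals of *Kcnk2* (47.3 to 152 and 84.5 to 160 CPM) included the levels of neurons, 87.6 and 91.6 CPM. The Control interval of *Kcnj13* (1.66 to 49.4 CPM) included the 3.63 CPM of tanycytes. For *Kcnd1* the intervals (1.66 to 49.4 and 6.33 to 37.5 CPM) included the levels of astrocytes, 8.12 and 7.28 CPM. Macrophages (16 and 44 barcodes) held *Kcng2* at 16.0 and 40.5 CPM from 2 and 15 UMIs and *Kcne3* at 32 and 5.40 CPM from 4 and 2 UMIs. Of genes chosen for a known role, *Kcnj3* with 28 UMIs, *Kcnmb1* with 4 UMIs, *Kcne5* with 9 UMIs and *Kcnk6* with 0 UMIs did not pass the limit, and *Kcnd2* was not analysed here. Among the remaining members of that kind, *Kcnj2*, a strong Kir channel, reached at most 4.00 CPM, *Kcnn4*, an intermediate-conductance channel, at most 3.63 CPM, and *Kcnab2*, a Kv1 beta subunit, at most 2.84 CPM in any of the 11 types in either library. *Kcnt1*, a sodium-activated channel, had 23.0 and 22.4 CPM in neurons and 18.1 and 16.2 CPM in precursors.

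Shares of cells with a UMI depend on depth. After each cell was thinned to 2000 UMIs, the share of astrocytes with a *Kcnj16* UMI was 36.6% in Control and 38.7% in SC300, and that of neurons was 0.665% and 0.670%. The share of mural cells with *Kcnj8* was 55.7% and 58.3%, and that of microglia with *Kcnk13* was 19.9% and 20.5%.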

How the data were processed

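Tissue of 3 rats was pooled for each of the Control and SC300 libraries, with 1 library per group. The authors deposited 10x 3′ UMI counts per gene and barcode, and the submitters' processing notes name Cell Ranger 3.0.1, while their design text names mkfastq 3.0.2 and Ensembl release 96. No normalized values were used. The deposited counts held 4488 and 4524 barcodes, the number of cells in the design text. The paper also gives these numbers in its methods, and smaller numbers of cells elsewhere, without stating what separates them.

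Barcodes with at least 200 detected genes were kept, without a limit on mitochondrial UMIs (median 11.4% and 12.4%). A barcode took the lineage whose marker list led, with at least 3 marker UMIs and a score at least 2 times that of any other lineage. The leading list also gave the type, except in the ventricular and vascular lineages. Ventricular barcodes were called tanycytes from 200 CPM and 2 UMIs of the tanycyte list, whichever list led, and ependymal cells otherwise. Vascular barcodes were called mural cells from 1000 CPM and 3 UMIs of the mural list, and endothelial cells otherwise. Members, marker and partner lists were chosen with earlier results of these data known, and the gate limits were set with the data in view. UMIs were summed by type and library and divided by all UMIs of that type. Levels have exact Poisson intervals, shares Clopper-Pearson intervals, and ratios exact conditional binomial intervals, all at 95% and for counting error only. With 1 library per group no test was made. Ratios were read with at least 100 UMIs in the type over both libraries and called at 1.5-fold, with a count of 0 set to 3 UMIs. The calculation of ratios was tested on simulated data. Clusters (25) were made without Kcn genes.

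Members named in the text were the 4 most restricted in each type, those past 1.5-fold, and a list of known roles. Added to these were 5 found in the fewest types and the 5 found in the most. The 27 members under 10 CPM in all types tied as fewest, and the first 5 by symbol were taken. Other names were added after their values were seen, namely *Kcnk7*, *Kcnh3*, *Kcns3* and *Kcnh1*. Values of a few members and partner genes are not reported here, though they enter the counts. Alternatives covered mitochondrial limits, doublets, gates, scaling, cell weighting, UMI minimum and fold. The tools were scanpy 1.11.5 (with its Scrublet, for doublets), scipy 1.17.1, pandas 2.3.3, numpy 2.4.6 and matplotlib 3.10.9 under Python 3.11.15.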

Additional observations from a re-analysis of the deposited data

Results flagged for a closer look

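*Kcnh1*, a voltage-gated channel of the EAG type, moved in opposite directions in both neuron classes. In GABAergic neurons it had 106 UMIs or 14.8 CPM (12.1 to 17.9) in Control and 60 UMIs or 8.99 CPM (6.86 to 11.6) in SC300, and the log2 ratio was -0.72 (-1.20 to -0.25). In glutamatergic neurons it had 67 UMIs or 20.2 CPM (15.7 to 25.7) in Control and 117 UMIs or 30.9 CPM (25.5 to 37.0) in SC300, and the log2 ratio was 0.61 (0.17 to 1.07). The share of cells with a UMI was 25.7% and 16.4% in GABAergic neurons and 41.1% and 35.8% in glutamatergic neurons, so that the share was lower in SC300 in both classes. The 3 highest barcodes held 12.3% and 18.3% of the UMIs in GABAergic and 23.9% and 28.2% in glutamatergic neurons. Over all neurons the level was 16.3 and 16.2 CPM. The difference between both classes was not tested, since each group has 1 library. *Kcnh1* was the only member found when all members were scanned for opposite directions over the types and both neuron classes. The same scan was not made over all genes. The alternative settings described below were not run for these 2 ratios.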

How the results depend on the processing

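The counts of 7 higher and 3 lower ratios between SC300 and Control moved with some choices. A limit of 20% mitochondrial UMIs gave 5 lower, and weighting every cell alike gave 7 lower, of which 2 were among the original 3. A limit of 10% gave 2 higher among 33 pairs, of which 1 was among the original 7, and left no value for mural cells and tanycytes. A minimum of 50 UMIs gave 13 higher and 8 lower among 134 pairs, and a fold of 2 gave 2 higher and 1 lower among 93. The shares over all genes were not computed for the changed settings. The other choices gave 6 or 7 higher and 2 to 4 lower. Of 102 other values of the 10 single ratios, 97 stayed within the counting interval of the ratio given above, 5 fell outside it and 0 changed sign. Those 5 were *Kcnc2* (1.57) and *Kcnk1* (-1.11) in the largest astrocyte cluster, *Kcnk1* in the second (-0.42), *Kcnip1* in mature oligodendrocytes at the 10% limit (-0.13, from 23 UMIs), and *Kcnmb4* in neurons with cells weighted alike (0.26). The cause was not tested. The cluster and neuron class alternatives were chosen after seeing the data. Single ratios were recomputed only for pairs already past 1.5-fold. Most alternatives reused largely the same cells and UMIs, so values within the interval were likely beforehand. The number of members with the same leading type stayed between 50 and 53, and all 66 members held at least 50 UMIs in the kept barcodes.

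Thinning each cell to 2000 UMIs lowered the Control share of cells with a UMI, by construction, to 36.6% for *Kcnj16* in astrocytes, 19.9% for *Kcnk13* in microglia, 55.7% for *Kcnj8* in mural cells, 26.8% for *Kcna1* in mature oligodendrocytes, 24.4% for *Kcnk16* in ependymal cells and 19.4% for *Kcnmb4* in precursors. The median log2 ratio of all genes was 0.30 in haemoglobin-rich barcodes and between -0.07 and 0.00 in the other types. No paired analysis was possible because each group has 1 library. Leaving out a replicate was not possible for the same reason. Pooling and dissociation cannot be told apart from the treatment.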
